A study of Mus musculus with 6 samples.

Results

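The ephrin, Slit-Robo and netrin families hold the best known guidance cues of growing axons and migrating neurons. In the E16.5 mouse lateral ganglionic eminence (LGE), the primordium of the striatum, 37 protein-coding genes of these families were measured by bulk RNA-seq among 15168 listed genes. The rule that took them uses symbol and annotated type alone, but it was set with earlier results of these data known. It gave Eph receptors and ephrins (20 genes), Slits and Robos (7 genes), and netrins with their Dcc, neogenin and Unc5 receptors (10 genes). All 37 passed the filter on low values and are described here. The comparison is between 3 libraries of each of 2 groups. Both carried *Dlx5/6-CIE*, a transgene in which *Dlx5/6* regulatory sequence drives Cre followed by an IRES and EGFP, so Cre acts in the progenitors of the ganglionic eminences and in their descendants. The control group carried *Dlx5/6-CIE* alone. The *Dlx5/6-CIE; Rosa-Sp9-OE/+* group, written Sp9-OE from here on, also carried 1 copy of a *Rosa26* knock-in in which the CAG promoter drives *Sp9* once Cre has removed a floxed LacZ-STOP cassette, while its cells without Cre express LacZ instead. The mice were of mixed background with littermate controls, and neither the labels nor the methods give the number of embryos behind a library. The p-values thus refer only to how much these libraries varied, which may be technical in part.

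Ephrins are membrane-bound ligands that signal on contact to Eph receptor tyrosine kinases, most often as a repellent, and the ligand-bearing cell can receive a reverse signal. Slits are secreted repellents read by Robo receptors. Netrin-1 attracts growth cones through Dcc and repels them where Unc5 receptors take part. In the developing striatum Eph receptors and ephrins are known for sorting neurons into the striosome and matrix compartments. The families are also known for steering striatal, cortical and thalamic axons that grow out of it or through it.

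The libraries held 19410365 to 25126847 reads in the listed genes. *Sp9*, the gene of the transgene, was at 130, 147 and 170 CPM (reads of a gene scaled to the size of the library) in the controls and at 178, 268 and 305 CPM in the Sp9-OE group, without overlap (log2 fold change 0.72, adjusted p = 0.788 by limma). *Xist* reached 2227 and 2191 CPM for control replicates 1 and 2, against 1.37 to 2.35 CPM for the remaining 4 libraries, so by this measure sex was not balanced between the groups. Genes that mark medium spiny neurons (MSNs) ranged from *Bcl11b* at 555 to 946 CPM and *Foxp1* at 307 to 492 CPM to *Ppp1r1b* at 9.60 to 32.0 CPM. The 8 listed genes shared by both types of MSN summed to 2353 to 3513 CPM. The 4 listed genes of the neighbouring medial eminence and of interneurons summed to 147 to 207 CPM. Among these, *Nkx2-1* was at 20.9 to 53.5 CPM and *Lhx6* at 110 to 132 CPM. The 8 listed markers of pyramidal neurons, all detected, summed to 112 CPM in control replicate 1, 56.3 CPM in control replicate 2 and 16.0 CPM in control replicate 3, against 36.4 to 52.9 CPM in the Sp9-OE group. Those of microglia summed to 75.3 CPM in Sp9-OE replicate 3 against 202 to 318 CPM elsewhere. In bulk tissue, fewer cells of a type and less RNA per cell cannot be told apart.

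Per kilobase of annotated exon, which allows levels of different genes to be compared, the most abundant guidance gene was *Epha4*, a receptor that binds ephrins of both classes. It was at 59.5 CPM per kilobase in the controls and 66.2 CPM per kilobase in the Sp9-OE group. The 3 ephrin-B genes came next, with control means of 41.9 for *Efnb1*, 29.3 for *Efnb2* and 25.9 CPM per kilobase for *Efnb3*. They were followed by the repellent gene *Slit1* (25.9 CPM per kilobase), the receptor genes *Ephb1* (21.4) and *Neo1* (19.8), the ephrin gene *Efna2* (18.7), *Ntn1*, which encodes netrin-1 (17.0), and *Epha3* (17.3), all as control means on that scale. *Epha4* and *Efnb1* stood apart from their neighbours in every library, whereas from *Efnb2* down to *Epha3* the libraries of each gene overlapped those of the next, so that the order was not resolved there. *Robo2* and *Robo1* followed at 13.0 and 12.4 CPM per kilobase. At the low end stood *Unc5c*, at 0.145 CPM per kilobase, *Robo3*, at 0.289, and *Epha2*, at 0.323 as control means. This order depends on the annotated exon length, which was 19.1 kb for *Unc5c*. In CPM its control mean of 2.77 was above those of *Robo3* (1.98) and *Epha2* (1.51). Within families the spread was wide, as *Slit1* lay at 25.9 CPM per kilobase where *Slit3* was at 1.01 and *Slit2* at 0.645. The exon length used was 6.07 kb for *Slit3* and 25.4 kb for *Slit2*, and in CPM *Slit2* (16.4) was above *Slit3* (6.11) as control means.

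**Figure D1:**
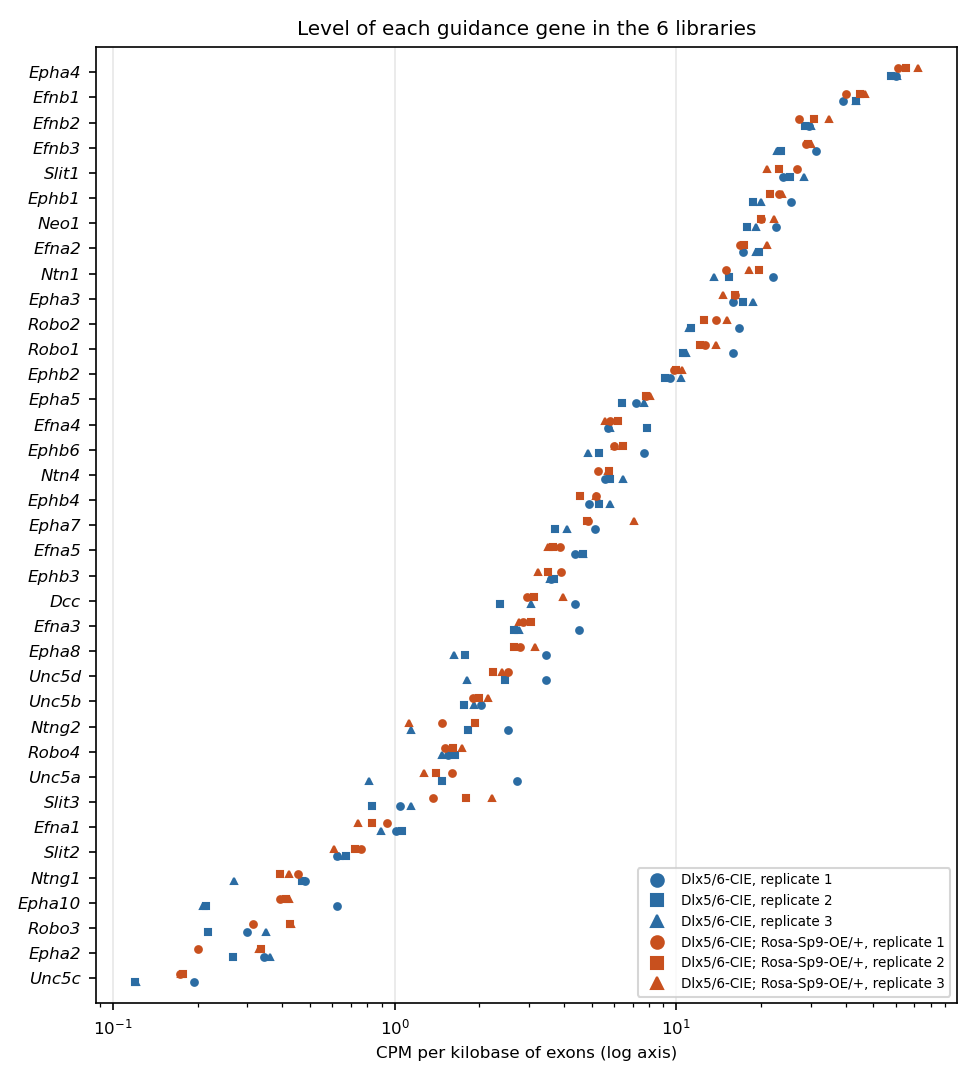
Level of the 37 guidance genes in CPM per kilobase of exon on a log axis, 1 point per library, with *Dlx5/6-CIE* controls in blue and *Dlx5/6-CIE; Rosa-Sp9-OE/+* in orange, and marker shapes for the replicate. *Epha4* heads the list at 59.5 CPM per kilobase in the controls, *Unc5c* closes it at 0.145, and for most genes the colours lie close together.

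No guidance gene passed the test across all genes. In limma on log2(CPM + 0.5), 0 of the 37 were higher and 0 lower at an adjusted p under 0.05, and in the background 0.0199% of 15102 genes were called higher and 0.00662% lower. The lowest adjusted p among the 37 was 0.788, and 0 were called by edgeR's quasi-likelihood test (lowest adjusted p 0.805) or by DESeq2 (lowest adjusted p 0.105). Before adjustment, 1 member was higher (*Slit3*) and 1 lower (*Efna5*) at p under 0.05, beside 2.68% and 2.84% of all genes, so this share was near the background. The groups did not overlap in 4 members. *Slit3*, *Epha4* and *Epha5* had every Sp9-OE library above every control, where 5.46% of all genes did, and *Efna5* had every one below, where 5.73% did. With 3 libraries against 3, an exact permutation test of a single gene cannot go below a two-sided p of 0.1. The median log2 fold change was 0.07 over the 37 genes and 0.00 over all genes tested, and 23 of the 37 were above 0, against 50.2% of all genes. For 35 members (94.6%) the 95% interval of the log2 fold change lay between -1 and 1, as for 94.6% of all genes. For 23 (62.2%) it lay between -0.5 and 0.5, against 70.7% of all genes.

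**Figure D2:**
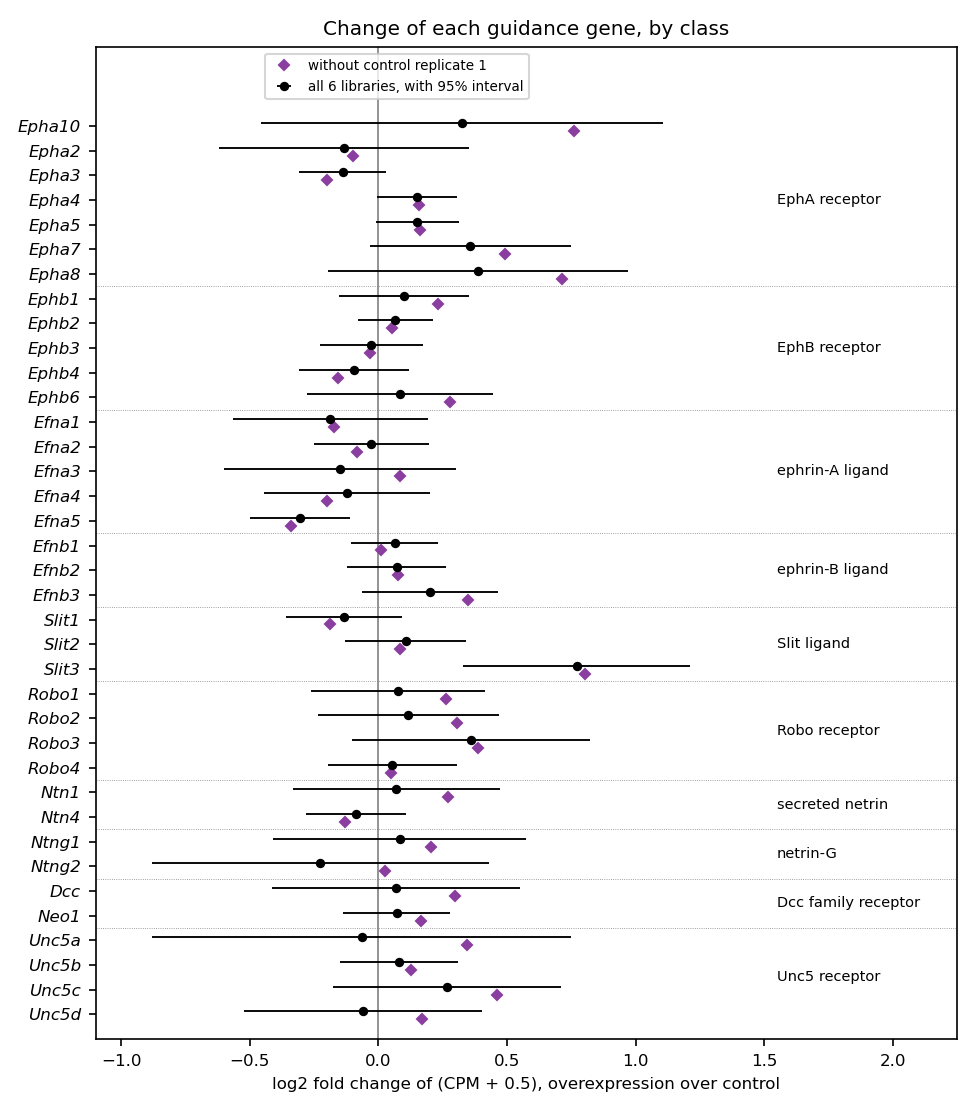
Log2 fold change of each guidance gene, Sp9-OE over control on log2(CPM + 0.5), grouped by class. Black points with 95% intervals use all 6 libraries and purple diamonds leave out control replicate 1; *Slit3* at 0.77 and *Efna5* at -0.31 are the 2 genes whose interval does not cross 0, and the diamonds of many receptor genes lie to the right of their points.

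*Slit3* had the largest log2 fold change of the 37 genes. It encodes a secreted Slit ligand of Robo receptors, and lies on chromosome 11 from 35121224 to 35708507 on GRCm38 (ENSMUSG00000056427). Its level was 6.37, 5.03 and 6.93 CPM in the controls and at 8.32, 10.8 and 13.5 CPM in the Sp9-OE group, from 101 to 298 reads per library. The means were 6.11 ± 0.977 and 10.9 ± 2.58 CPM (SD, n = 3 each), a ratio of 1.78. All Sp9-OE libraries lay above all controls, and replicate 1 of the Sp9-OE group was nearest to them. The log2 fold change was 0.77 (standard error 0.19, adjusted p = 0.788 by limma), with a range of 0.61 to 0.94 when any single library was left out. Against control replicate 3 alone, the only control with low *Xist*, it was 0.59. The order of the Sp9-OE libraries was the same as for *Sp9*, at 178, 268 and 305 CPM, and for the summed level of 9 D2-MSN genes, at 1022, 1128 and 1433 CPM. Of these 9, *Penk* and *Six3* did not follow it. The order was not particular to them, as the 8 genes shared by both types of MSN summed to 2705, 2890 and 3513 CPM. Microglia markers ran the other way, at 261, 202 and 75.3 CPM. Sp9-OE replicate 3 was the highest library for 26.5% of all genes tested. Whether any of these bears on *Slit3* was not tested. *Slit3* overlaps 4 annotated genes, *Mir218-2* among them, of which 0 are listed in the table.

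The remaining Slit genes, which also encode secreted repellents, overlapped between the groups. *Slit1*, the most abundant Slit gene, was at 142, 150 and 168 CPM in the controls and at 159, 137 and 124 CPM in the Sp9-OE group. The highest Sp9-OE library exceeded 2 of the 3 controls, and the log2 fold change was -0.13 (standard error 0.10, adjusted p = 0.798 by limma). *Slit2* was at 15.9 to 17.2 CPM in the controls and 15.5 to 19.4 CPM in the Sp9-OE group, also with overlap.

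*Efna5* encodes ephrin-A5, a lipid-anchored ligand of EphA receptors known for axon mapping and for cell sorting in the striatum. The gene (ENSMUSG00000048915) lies on chromosome 17 from 62604184 to 62881317. It was at 17.5, 18.8 and 18.8 CPM in the controls and at 15.5, 14.7 and 14.1 CPM in the Sp9-OE group. Every Sp9-OE library lay below every control, with means of 18.4 ± 0.733 and 14.8 ± 0.739 CPM (SD, n = 3 each) and a ratio of 0.804. The log2 fold change was -0.31 (standard error 0.08, adjusted p = 0.788 by limma), and it ran from -0.34 to -0.27 when any single library was left out. It was -0.34 against control replicate 3 alone. The SD was 3.98% of the mean in the controls and 4.99% in the Sp9-OE group.

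The other ephrin-A genes were also lower by value, each with overlap between the groups and an adjusted p from 0.820 to 0.955 by limma. *Efna2*, the most abundant of them, was at 36.8, 41.7 and 40.8 CPM in the controls and at 35.7, 37.1 and 44.6 CPM in the Sp9-OE group, which did not separate the groups. *Efna4* was at 9.17 to 12.6 and 8.96 to 9.90 CPM, and *Efna1* at 1.64 to 1.94 and 1.36 to 1.72 CPM. *Efna3* was highest in control replicate 1, at 1.67 times the mean of the other controls, and lay between 6.47 and 7.39 CPM in the remaining 5 libraries. Summed over the 5 ephrin-A genes, the level was 76.4, 81.5 and 77.4 CPM in the controls and 69.3, 70.7 and 75.8 CPM in the Sp9-OE group. The list has a median log2 fold change of -0.15, against 0.00 over all genes. The direction of the less changed genes depended on the setting. With *Xist* as a covariate *Efna3* and *Efna4* were at 0.07 and 0.02, and *Efna1* and *Efna2* at -0.08 and -0.07. *Efna3* was at 0.08 without control replicate 1.

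The ephrin-B genes, which encode transmembrane ligands with a cytoplasmic tail, were each higher by value. *Efnb1* was at 134, 150 and 150 CPM in the controls and at 139, 154 and 161 CPM in the Sp9-OE group. *Efnb2* was at 202, 196 and 205 CPM in the controls and at 187, 211 and 238 CPM in the Sp9-OE group, which held both the lowest and the highest library. *Efnb3* was at 99.9, 74.9 and 72.2 CPM in the controls and at 92.1, 93.02 and 95.9 CPM in the Sp9-OE group. All 3 Sp9-OE values of *Efnb3* thus lay between control replicate 1 and the other controls. Its log2 fold change was 0.20 (standard error 0.11, adjusted p = 0.788 by limma) and 0.35 without control replicate 1 (adjusted p = 0.0989 by limma), the lowest adjusted p of any member in any setting run.

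**Figure D3:**
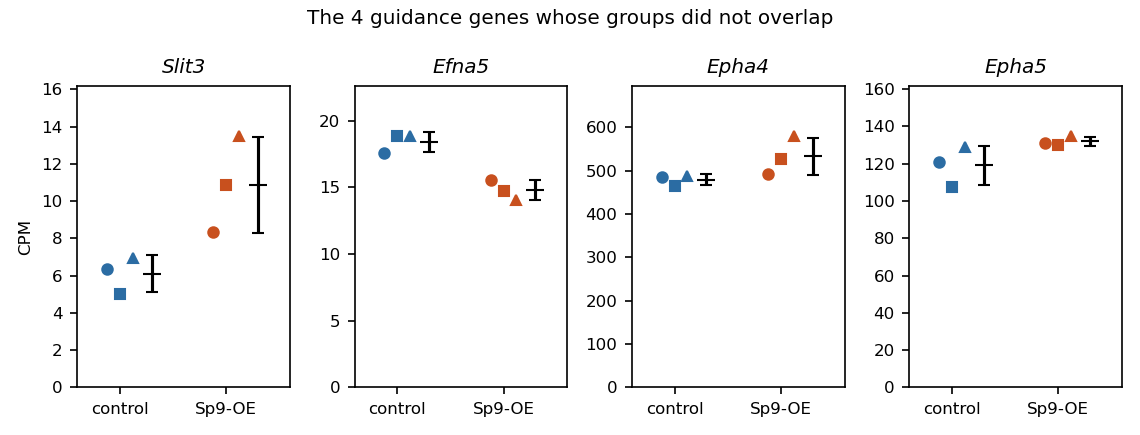
CPM of *Slit3*, *Efna5*, *Epha4* and *Epha5* in each library, with controls in blue, *Dlx5/6-CIE; Rosa-Sp9-OE/+* (Sp9-OE) in orange, and a black dash with bars for the mean ± SD of 3 libraries. *Slit3* goes from 6.11 to 10.9 CPM and *Efna5* from 18.4 to 14.8 CPM as means, while *Epha4* and *Epha5* differ by far less than the axis height.

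Among the EphA receptors, *Epha4* (ENSMUSG00000026235, chromosome 1 from 77367185 to 77515088) was at 485, 465 and 488 CPM in the controls and at 493, 526 and 579 CPM in the Sp9-OE group. The groups did not overlap, but Sp9-OE replicate 1 was close to the highest control. The means were 479 ± 12.3 and 533 ± 43.5 CPM (SD, n = 3 each), and the log2 fold change was 0.15 (standard error 0.07, adjusted p = 0.788 by limma). Without Sp9-OE replicate 3 it was 0.09. In that library the 8 genes shared by both types of MSN also summed highest, at 3513 CPM against 2353 to 2890 CPM in the others, and their part in the result was not tested.

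*Epha5* (ENSMUSG00000029245, chromosome 5 from 84054761 to 84417382) encodes a receptor of ephrin-A ligands. It was at 121, 108 and 129 CPM in the controls and at 131, 130 and 135 CPM in the Sp9-OE group. The groups were separate by a small margin, and the log2 fold change was 0.15 (standard error 0.07, adjusted p = 0.788 by limma). Against control replicate 3 alone it was 0.03, and with the *Xist* level as a covariate it was 0.03. The log2 fold change of *Epha5* was 0.16 without control replicate 1 and 0.08 without control replicate 2, its lowest library. With 1 control low in *Xist*, sex and replicate cannot be told apart here.

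*Epha7*, another receptor of ephrin-A ligands, was at 50.9, 36.6 and 40.4 CPM in the controls and at 48.0, 47.7 and 69.8 CPM in the Sp9-OE group. Sp9-OE replicate 3 stood above all others, and the log2 fold change of 0.36 (standard error 0.17, adjusted p = 0.788 by limma) was 0.18 without it. *Epha3* was lower by value, at 138, 150 and 162 CPM in the controls and at 141, 140 and 127 CPM in the Sp9-OE group, and the groups overlapped. *Epha8* was at 16.2, 8.41 and 7.64 CPM in the controls and at 13.1, 12.5 and 14.8 CPM in the Sp9-OE group. *Epha10*, whose product lacks kinase activity, had the same pattern at a lower level, with 4.51, 1.54 and 1.51 CPM in the controls against 2.81 to 3.03 CPM in the Sp9-OE group. In both genes the Sp9-OE libraries lay between control replicate 1 and the rest of its group. *Epha2*, best known from epithelia, was at 0.938 to 1.69 CPM over all libraries.

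Promoters are shown for *Efna5*, *Epha4* and *Epha5*, among the genes whose groups did not overlap, because *Sp9* encodes a zinc finger factor of the Sp family, whose members are known to bind GC boxes. The sequences are the bases before the RefSeq start of transcription on GRCm38.p6, written 5′ to 3′ on the strand of the gene, with GC boxes (GGGCGG on either strand, overlapping matches counted separately) in capitals.
Efna5, chr17:62881318-62881567, minus strand: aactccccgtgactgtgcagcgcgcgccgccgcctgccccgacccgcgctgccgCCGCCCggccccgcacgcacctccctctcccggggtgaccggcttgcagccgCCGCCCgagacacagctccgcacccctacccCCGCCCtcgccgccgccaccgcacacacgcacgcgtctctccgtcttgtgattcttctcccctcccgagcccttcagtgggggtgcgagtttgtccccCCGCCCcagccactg
Epha4, chr1:77515089-77515338, minus strand: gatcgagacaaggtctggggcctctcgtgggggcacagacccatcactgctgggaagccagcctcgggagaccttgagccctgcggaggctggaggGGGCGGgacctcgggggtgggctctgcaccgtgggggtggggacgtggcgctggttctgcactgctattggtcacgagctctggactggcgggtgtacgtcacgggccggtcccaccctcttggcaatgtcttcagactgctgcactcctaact
Epha5, chr5:84417383-84417632, minus strand: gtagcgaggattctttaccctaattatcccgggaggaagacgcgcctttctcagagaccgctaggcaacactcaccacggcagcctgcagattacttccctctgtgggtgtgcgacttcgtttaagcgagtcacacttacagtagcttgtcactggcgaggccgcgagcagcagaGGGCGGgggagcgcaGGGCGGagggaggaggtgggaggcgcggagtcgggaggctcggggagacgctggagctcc

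The window of *Efna5* held 4 GC boxes, that of *Epha5* held 2 and that of *Epha4* held 1. That of *Slit3* held 6, but its sequence is not printed because GENCODE places the start of *Slit3* within the window. Of the 32 guidance genes found in the RefSeq table, 22 (68.8%) had at least 1 GC box in such a window, against 6911 of 10792 tested genes in that table (64.0%), so the share was near that of genes in general. The *Robo1* and *Robo2* windows held 0, which says only that these letters are not there. Some counted windows lie inside the gene as GENCODE places it, those of *Robo1*, *Unc5c*, *Ntn4* and *Epha10* among them. The share is thus not one of sequence before the GENCODE start alone. A match is a description of the sequence and not a site of binding.

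The EphB receptors overlapped between the groups in all 5 genes. *Ephb1*, known for the retinal axons that do not cross at the optic chiasm, was at 179, 131 and 140 CPM in the controls and at 162, 151 and 166 CPM in the Sp9-OE group. Its Sp9-OE libraries again lay below control replicate 1 and above the other controls. *Ephb2* was at 115 to 131 CPM in the controls and 124 to 133 CPM in the Sp9-OE group, and *Ephb3* at 23.6 to 24.5 and 21.5 to 25.9 CPM. *Ephb4*, a receptor of venous endothelium, was at 22.7 to 26.9 and 21.1 to 24.1 CPM. *Ephb6*, whose product lacks kinase activity, reached 28.9 CPM for control replicate 1 against 18.3 to 24.5 CPM elsewhere. The adjusted p of these 5 genes ran from 0.824 to 0.949 by limma.

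*Robo1* and *Robo2*, the main neuronal receptors of Slits, were at similar levels per kilobase, with the libraries in nearly the same order. *Robo1* was at 261, 174 and 179 CPM in the controls and at 209, 200 and 228 CPM in the Sp9-OE group. *Robo2* was at 282, 191 and 189 CPM in the controls and at 235, 213 and 258 CPM in the Sp9-OE group. Control replicate 1 was the highest library for both genes, and the other controls were the lowest. The log2 fold change was 0.08 for *Robo1* (standard error 0.15, adjusted p = 0.910 by limma), with a 95% interval from -0.26 to 0.41. Without control replicate 1 it was 0.26 for *Robo1* and 0.31 for *Robo2*, at adjusted p = 0.2405 and 0.250 by limma. *Robo3*, known from commissural axons, was at 1.49 to 2.40 CPM in the controls and 2.15 to 2.94 CPM in the Sp9-OE group, from 30 to 65 reads per library. *Robo4*, an endothelial gene, was at 7.81 to 8.71 and 8.01 to 9.19 CPM, while the 8 listed endothelial markers summed to 173 to 176 and 162 to 167 CPM.

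*Ntn1* was at 139, 96.3 and 85.6 CPM in the controls and at 94.3, 123 and 113 CPM in the Sp9-OE group, with a log2 fold change of 0.07 (standard error 0.17, adjusted p = 0.933 by limma). *Ntn4*, known from basement membranes, was at 20.9 to 24.1 and 19.8 to 21.6 CPM, so the groups of both secreted netrins overlapped.

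*Dcc*, the receptor through which netrin-1 attracts axons, was at 57.4, 31.1 and 40.3 CPM in the controls and at 38.8, 41.2 and 52.1 CPM in the Sp9-OE group. Its control group spanned the whole Sp9-OE group. The log2 fold change was 0.07 (standard error 0.21, adjusted p = 0.946 by limma), with a 95% interval from -0.41 to 0.55. The related *Neo1*, a receptor of netrins and of repulsive guidance molecules, was at 197, 155 and 167 CPM in the controls and at 174, 174 and 194 CPM in the Sp9-OE group, and control replicate 1 was again the highest library.

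The Unc5 receptors were lower in level than *Neo1*. *Unc5d*, which marks cells of the cortical subventricular zone and upper layers, was at 31.8, 22.6 and 16.7 CPM in the controls and 20.6 to 23.2 CPM in the Sp9-OE group. *Unc5a* was at 11.3, 6.12 and 3.37 CPM in the controls and 5.30 to 6.68 CPM in the Sp9-OE group. *Unc5c* was at 3.71, 2.29 and 2.31 CPM in the controls and at 3.32, 3.41 and 3.35 CPM in the Sp9-OE group, so its Sp9-OE libraries lay between control replicate 1 and the other controls. *Unc5b*, which endothelial cells also express, had means of 11.9 and 12.6 CPM. *Ntng2* and *Ntng1* encode netrin-G proteins, which are anchored in the membrane and bind NGL proteins and not Dcc. *Ntng2* was at 10.1, 7.26 and 4.57 CPM in the controls and 4.48 to 7.71 CPM in the Sp9-OE group, and *Ntng1* at 2.22 to 3.96 and 3.23 to 3.75 CPM.

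Many guidance genes were highest in control replicate 1. That library was the highest of the 6 for 16 of the 37 genes (43.2%), against 17.8% of all genes tested. In 15 members (40.5%) its level was more than 1.2 times that of both other controls, against 10.7% of all genes. These counts were made after the values were seen and describe this library. The 16 genes were *Dcc*, *Neo1*, *Robo1*, *Robo2*, *Ntn1*, *Ntng1*, *Ntng2*, *Unc5a*, *Unc5c*, *Unc5d*, *Epha8*, *Epha10*, *Ephb1*, *Ephb6*, *Efna3* and *Efnb3*, so 8 of the 10 netrin genes and their receptors were among them, against 2 of the 7 Slit and Robo genes and 6 of the 20 ephrin and Eph genes. *Unc5a* was at 2.39 times the mean of the other controls in that library, *Epha8* at 2.02 times and *Epha10* at 2.96 times, against 1.48 times for *Robo1*. The pyramidal neuron genes *Neurod6* and *Tbr1* were also highest there, at 15.9 and 31.8 CPM against 1.199 to 6.72 and 2.13 to 13.9 CPM in the other libraries. Other lists were raised too. The 10 D1-MSN genes summed to 810, 676 and 675 CPM in the controls, and the 4 genes of the medial eminence and interneurons to 207, 189 and 153 CPM. Within these lists *Tac1* was at 2.98 and *Isl1* at 1.03 times the mean of the other controls, and *Sst* at 2.21 and *Lhx6* at 1.07 times, in control replicate 1. The MSN gene *Ppp1r1b* reached 32.0 CPM there against 9.60 and 9.77 CPM in control replicates 2 and 3. It was the most extreme of the 8 genes shared by both types of MSN. Together these summed to 2839 CPM there against 2353 and 2589 CPM in control replicates 2 and 3, and *Gad2* was lowest there. The radial glia and intermediate progenitor markers summed lowest of the controls there, at 2280 and 902 CPM against 2629 to 2735 and 1159 to 1209 CPM. The part of these cell types in the guidance gene levels was not tested.

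**Figure D4:**
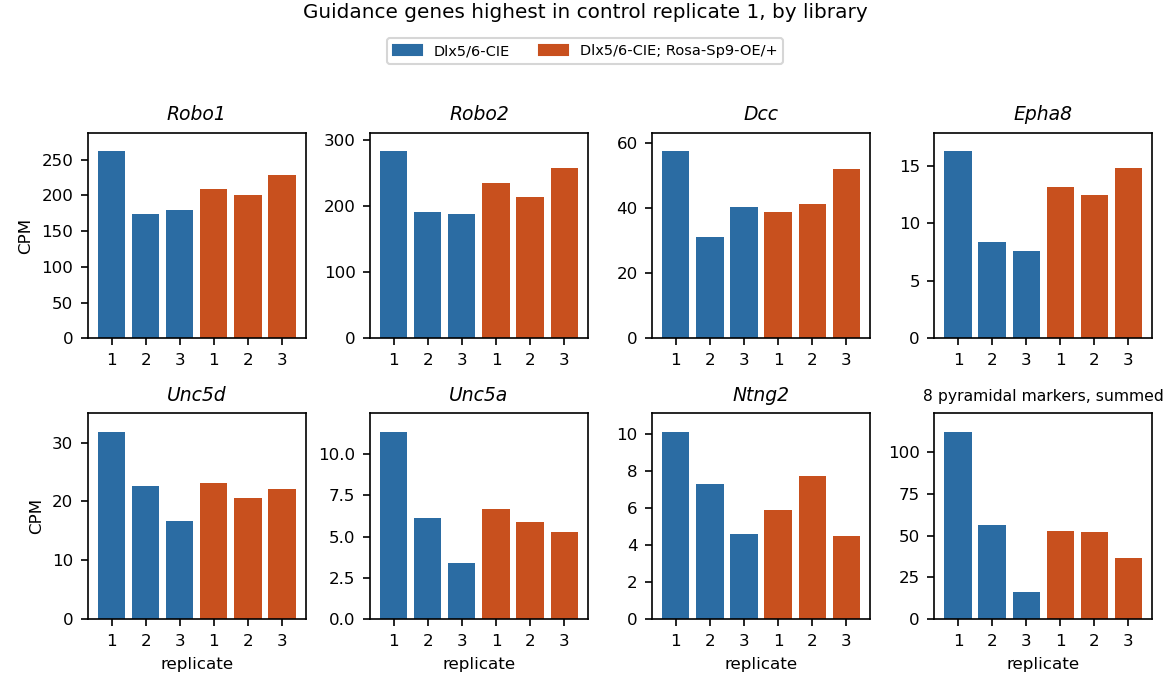
CPM by library for 7 guidance genes that were highest in control replicate 1 and, in the last panel, the sum of the 8 pyramidal neuron markers, with controls in blue and Sp9-OE libraries in orange. Among the controls, *Unc5d*, *Unc5a* and *Ntng2* follow the order of the pyramidal markers (112, 56.3 and 16.0 CPM), whereas *Robo1*, *Robo2* and *Epha8* are about equal in control replicates 2 and 3. The 4 listed genes of the medial eminence and interneurons, not drawn, sum to the same control order as the pyramidal markers (207, 189 and 153 CPM).

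Without control replicate 1, 12 guidance genes were higher and 2 lower at an unadjusted p under 0.05 by limma, against 1 and 1 with all libraries. Over all genes 7.41% were then higher and 6.00% lower at that threshold. That library was singled out because many members were highest in it, and most of the 12 were among those. Leaving out the highest control raises the log2 fold change of such genes by construction. The rise in the count is thus no separate evidence of a difference between the groups. The 12 were *Slit3*, *Efnb3*, *Epha7*, *Epha8*, *Epha10*, *Ephb1*, *Ephb6*, *Robo1*, *Robo2*, *Neo1*, *Ntn1* and *Unc5c*, the 2 were *Efna5* and *Epha3*, and 0 passed an adjusted p of 0.05. *Epha8* reached a log2 fold change of 0.71 in that setting, from 0.39 with all libraries, and *Epha10* reached 0.76 from 0.33. The median log2 fold change of the 37 genes was then 0.16, against -0.00 over all genes. *Slit3* moved from 0.77 to 0.80 and *Efna5* from -0.31 to -0.34, so these differences were as large without that library.

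**Figure D5:**
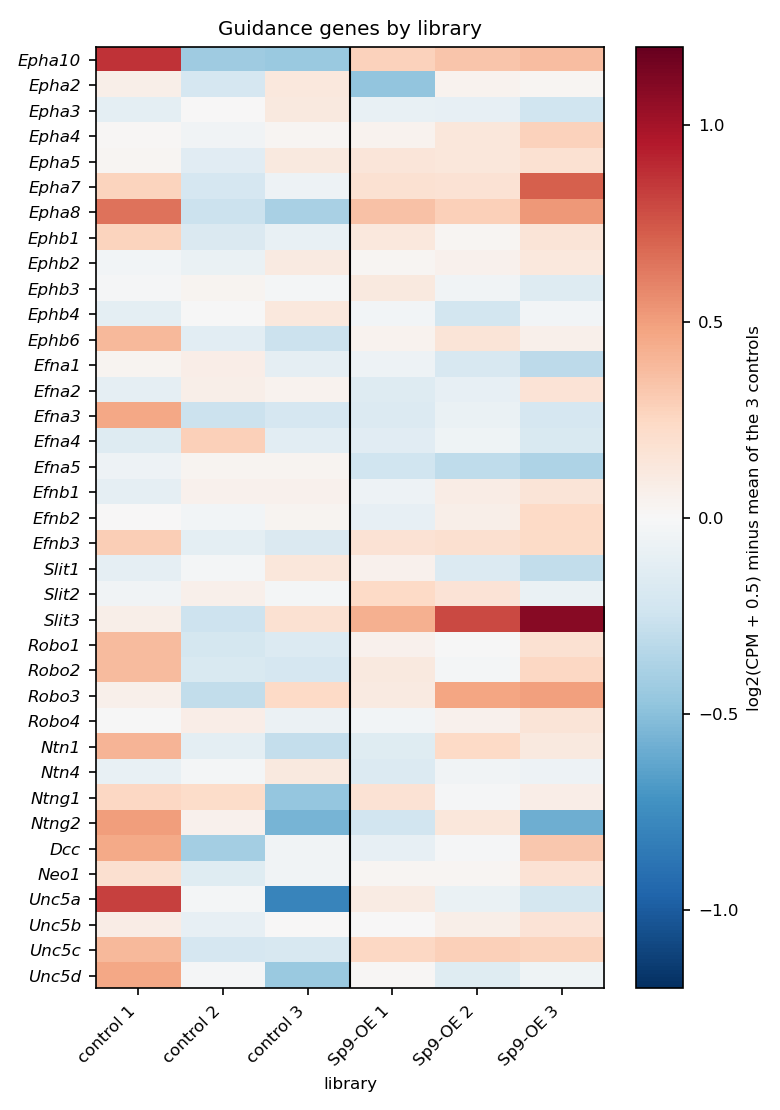
Log2(CPM + 0.5) of each guidance gene in each library minus the mean of the 3 controls, with red above and blue below; columns are the 3 *Dlx5/6-CIE* controls and the 3 *Dlx5/6-CIE; Rosa-Sp9-OE/+* libraries (Sp9-OE). The column of control replicate 1 is red for the 16 genes that were highest there, and *Slit3* is red in all 3 Sp9-OE columns while *Efna5* is blue in them.

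Of 53 other genes of the 3 pathways, such as effectors of Eph kinases, Robo-binding GTPase regulators and co-receptors, 0 were called in either direction by limma over all genes. At an unadjusted p under 0.05, 3 were higher and 0 lower, beside 2.68% and 2.84% of all genes. These were *Srgap3*, a Slit-Robo GTPase-activating protein, at 363 to 416 CPM in the controls and 432 to 472 CPM in the Sp9-OE group, *Rgma*, a ligand of neogenin, at means of 89.3 and 98.3 CPM, and *Vav3*, an exchange factor downstream of Eph receptors, at 7.16 to 9.27 and 10.1 to 10.7 CPM. The groups of these 3 genes did not overlap, as in 5.46% of all genes in that direction, and each had an adjusted p of 0.788 by limma. *Usp33*, a deubiquitinase that binds Robo1, was the 1 gene of the 53 with every Sp9-OE library below the controls, where 5.73% of all genes were. Of the 53 genes, 42 were higher by value, against 50.2% of all genes, with a median log2 fold change of 0.08 against 0.00.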

How the data were processed

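RNA was made from the E16.5 LGE with a stranded total RNA kit after removal of ribosomal RNA, 3 libraries per group, with groups and replicate numbers from the sample labels. The build is mm10 per the submitters' processing notes, and for the aligner and counter the sources used here give no name. The deposited values are CPM per gene, computed by the authors on an effective library size. All were whole multiples of 1 read within 0.0006 CPM, which gave recovered reads. The authors also deposited mean log2 CPM, log2 fold changes and p-values of their own comparison, which were not used. A gene was kept when 3 or more libraries reached 0.5 CPM, which left 15102. Genotype was fitted alone to log2(CPM + 0.5) by limma 3.58.1 (R 4.3.3, eBayes with trend), and its two-sided p-values were adjusted by Benjamini-Hochberg across these genes. This scale understates the change of low genes.

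Values after ± are SDs. Levels per kilobase used the union of GENCODE M21 exons on GRCm38, and 5 of the 37 genes overlap another listed gene (*Efna4*, *Efnb2*, *Ephb4*, *Ntng2* and *Unc5a*), for which the strand used in counting is not given. Named genes were *Epha4*, *Epha5*, *Robo1*, *Dcc*, the 10 most abundant per kilobase, the 10 with the smallest p and those without overlap, with other members by range or where they show a pattern noticed in the values. Members, lists and alternatives were chosen with earlier results of these data known. Alternatives were edgeR 4.0.16 and DESeq2 1.42.0 on recovered reads, pseudocounts of 0.1 and 1 CPM, no filter or 1 CPM, median-of-ratios scaling, the replicate number as a block, *Xist* as a covariate, each library left out and an adjusted p under 0.01. The fits were also run on simulated counts, and the share of changed genes recovered there is not given here. Replicates differed by more than sampling noise (chi-square of 5.73 to 17.5 per degree of freedom).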

Additional observations from a re-analysis of the deposited data

How the results depend on the processing

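The number of guidance genes called was 0 under every alternative run, and so was that of the other pathway genes. Of all genes, 4 were called, against 34 by DESeq2, and 3 to 15 when any single library was left out, with 15 without control replicate 1 and 11 without control replicate 3. Guidance genes at an unadjusted p under 0.05 numbered 2, against 4 by DESeq2, 4 with the replicate block and 5 with *Xist* as a covariate. They numbered 2 to 14 when any single library was left out, with 14 without control replicate 1 and 5 without Sp9-OE replicate 1. Of all genes, 2.68% were higher and 2.84% lower at that threshold with all libraries, and 7.41% and 6.00% without control replicate 1. For the other settings this share was not counted, so those numbers have no background beside them. The replicate numbers share no stated batch, and same-numbered libraries deviated together with correlations of -0.10, 0.20 and 0.08 across genes, so they were not treated as pairs.

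For 19 members, 304 values under alternatives were computed. Of these, 293 kept their direction and none passed the threshold. Among these 19, the 11 values that turned came from leaving out a library. When any single library was left out, the log2 fold change ran from -0.14 to 0.30 for *Dcc*, from -0.12 to 0.0347 for *Efna2*, from -0.0142 to 0.16 for *Efnb2*, from -0.00449 to 0.17 for *Neo1*, from -0.0746 to 0.27 for *Ntn1* and from -0.0294 to 0.26 for *Robo1*. *Slit3* was at 0.60 with *Xist* as a covariate. Outside the 19, some members changed direction in that setting. *Unc5a* went from -0.06 to 0.76, *Unc5d* from -0.06 to 0.40 and *Ntng2* from -0.23 to 0.36. *Efna3* went from -0.15 to 0.07, *Efna4* from -0.12 to 0.02 and *Ephb2* from 0.07 to -0.05. Depth limits *Epha2*, *Efna1* and *Robo3* most, with 24 to 65 reads per library.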
